A study of Drosophila melanogaster with 12 samples.

Results

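The genes described are 4 that encode parts of the machinery that makes RNA in Drosophila melanogaster: TfIIFalpha, CycH, MED22 and Polr1A. They are 4 of the 131 genes that could be named on the arrays, and each had 1 probe set among 13966 gene probe sets. A probe set (the array's group of probes for a transcript) was taken where its identifier is a synonym of the gene in the RefSeq gene table. Where a gene had several, the probe set was to be chosen by its highest mean intensity over all 12 arrays, a step that decided nothing here and used no difference between groups. The genes themselves were picked with earlier results of these data known. The probe sets are 154355_AT for TfIIFalpha, 142767_AT for CycH, 144358_at for MED22 and 153129_AT for Polr1A. Only 1 of the genes belongs to Mediator and 1 to an RNA polymerase, while the other two are general factors of RNA polymerase II.

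Total RNA of whole C-S embryos was measured on 1-colour arrays in 4 groups of 3. Embryos at stages 13 to 15, the window that the titles call resistant, were either X-ray treated and collected 15 to 20 minutes later or left as controls. Embryos at stages 9 to 11, the sensitive window, were handled in the same way. No dose of X-rays is stated in the labels. They also leave it unsaid whether the 3 arrays of a group hold separately collected embryos, so every p-value measures only the spread between these arrays, which may be technical.

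RNA polymerase II makes messenger RNA and cannot start at a promoter alone. General transcription factors place it there, Mediator links it to DNA-bound regulators, and the kinase of TFIIH phosphorylates its tail as it leaves the promoter. TfIIFalpha encodes the large subunit of TFIIF, which binds the polymerase and brings it to the promoter. CycH encodes cyclin H, the partner of the kinase Cdk7 in TFIIH, and the same kinase pair also activates cell cycle kinases. MED22 encodes a subunit of the Mediator head. Polr1A encodes the largest subunit of RNA polymerase I, the separate enzyme that transcribes the ribosomal RNA genes in the nucleolus.

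The stage markers en and betaTub60D differed between the windows, although these genes alone cannot establish the exact stages that the labels give. The segment polarity gene en averaged 69.0 ± 13.3 in control embryos at stages 13 to 15 and 310 ± 43.3 at stages 9 to 11, and the mesodermal tubulin gene betaTub60D averaged 633 ± 130 and 91.0 ± 6.01 (SD, n = 3 each). Arrays that share a number in their titles also shared a technical level. The spike-in BioB, by its middle probe set, was brightest for number 1 (1376 to 1533), lower for number 2 (425 to 738) and lowest for number 3 (226 to 299). Number 3 also differed in the ratio of 5' to 3' signal of the control gene eIF-4a. This ratio was 0.14 to 0.20, against 0.038 to 0.055 for number 1 and 0.052 to 0.080 for number 2. Every number occurs once in each group. Differences within each number are therefore given beside the results, and calls that change without the arrays numbered 3 are named.

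All 4 genes were detected above the filter value of 29.9 (the 40th percentile of the table) on 12 of 12 arrays. Their lowest and highest values were 190.0 and 621 for TfIIFalpha, 58.2 and 235 for CycH, 130 and 405 for MED22, and 182 and 492 for Polr1A. These are intensities of different probe sets and set no order between the genes. The standard deviation within a group of 3 was 1.92% to 23.9% of the mean for MED22, 12.5% to 21.8% for Polr1A, 18.8% to 33.0% for TfIIFalpha and 17.5% to 37% for CycH.

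**Figure D1:**
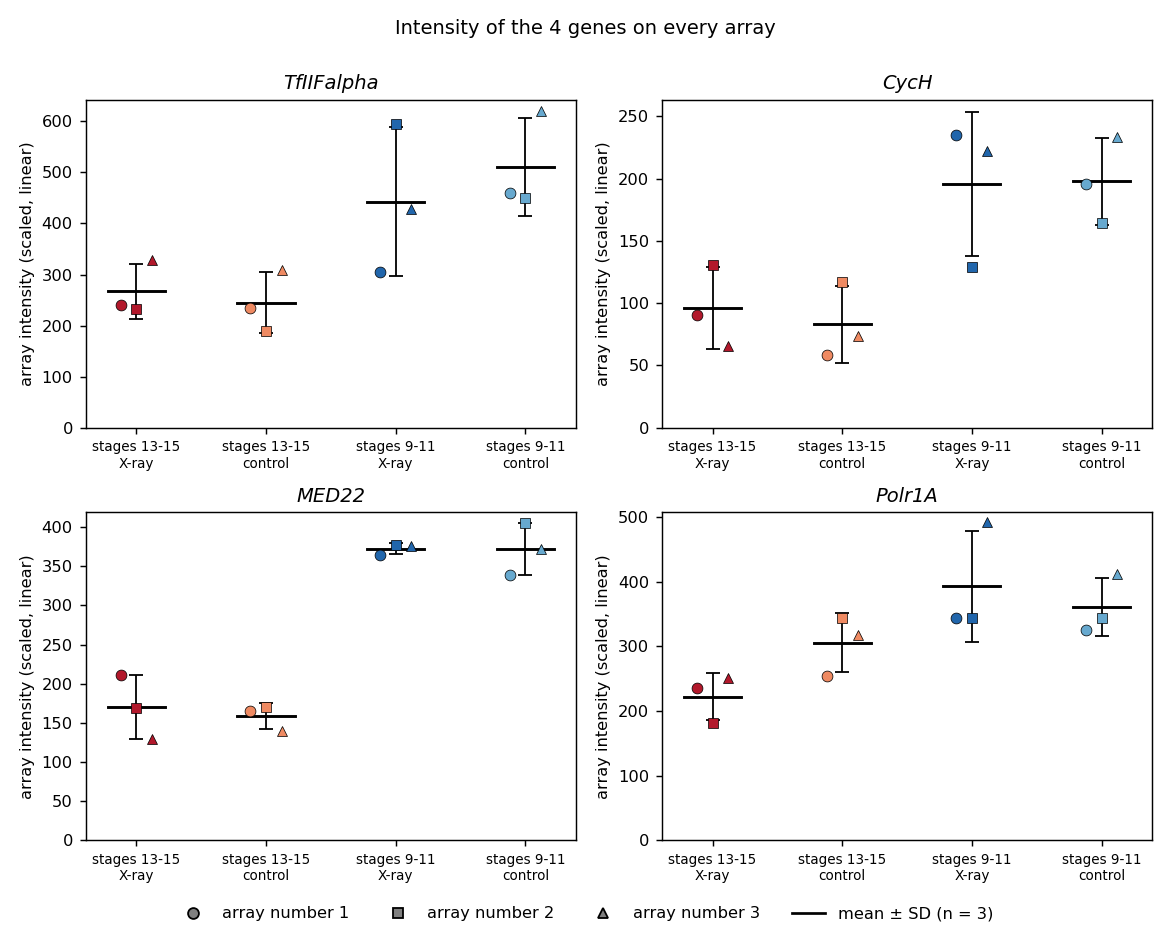
Array intensity (linear, scaled by the authors) of the 4 genes on each of the 12 arrays, with 1 panel for each gene. Symbols give the array number, and bars the mean ± SD of 3 arrays. For MED22 the 6 arrays of stages 13 to 15 lie at 130 to 211 and the 6 of stages 9 to 11 at 338 to 405.

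The first question was how the 4 transcripts differ between the windows, in irradiated and in control embryos, which are separate sets of 6 arrays. In irradiated embryos, CycH, MED22 and Polr1A were each lower at stages 13 to 15, by 1.71-fold to 2.14-fold, while the difference of TfIIFalpha did not pass the test. Of 23 other settings of the analysis there, 6 let TfIIFalpha pass and 6 ended the call of CycH. In control embryos, TfIIFalpha, CycH and MED22 were lower, by 2.05-fold to 2.25-fold, and Polr1A did not pass. MED22 and CycH were thus called in both sets. Differences were tested with limma on log2(intensity + 13.3), with p-values adjusted over all 10139 tested probe sets, so each fold is on that scale. In whole embryos, fewer cells that carry a transcript and less of it per cell cannot be told apart.

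In irradiated embryos TfIIFalpha read 240, 232 and 329 at stages 13 to 15 (arrays numbered 1, 2 and 3), against 304, 595 and 428 at stages 9 to 11. The groups overlapped, because the array numbered 1 was low among the irradiated embryos of stages 9 to 11 and the array numbered 3 was high among those of stages 13 to 15. The log2 difference was −0.67 ± 0.24 (SE, 95% interval −1.19 to −0.15, adjusted p = 0.0613), while single numbers gave −0.32, −1.31 and −0.37. Without the stage 9 to 11 X-ray array numbered 1 it was −0.90 (adjusted p = 0.0177), and without the stage 13 to 15 X-ray array numbered 3 it was −0.82 (adjusted p = 0.0449), both past the threshold. It also passed without the arrays numbered 3 (−0.82, adjusted p = 0.0431) and without the stage 13 to 15 control array numbered 3 (−0.67, adjusted p = 0.0499). The same was seen with each array scaled to a common median (−0.76, adjusted p = 0.0462). With the replicate number added to the fit as a block, TfIIFalpha passed as well (−0.67, adjusted p = 0.0265). In control embryos TfIIFalpha read 235, 190.0 and 308 at stages 13 to 15, against 461, 449 and 621 at stages 9 to 11. Here the groups did not overlap, and the array numbered 3 was the highest in both. The fitted log2 difference was −1.03 ± 0.24 (SE, adjusted p = 0.00493), while single numbers gave −0.93, −1.18 and −0.98.

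CycH, the cyclin of the TFIIH kinase, read 90.9, 131 and 65.9 in irradiated embryos at stages 13 to 15, against 235, 129 and 222 at stages 9 to 11. Both values of about 130 come from arrays numbered 2, where the windows were nearly equal, and the groups overlapped by these alone. The log2 difference of −0.94 ± 0.30 (SE, adjusted p = 0.0309) was −1.26, 0.02 and −1.57 within the numbers. Single arrays ended this call. It was lost without the stage 13 to 15 X-ray array numbered 1 (−0.92, adjusted p = 0.0773) or 3 (−0.73, 0.133), and without the stage 9 to 11 X-ray array numbered 1 (−0.79, 0.116) or 3 (−0.83, 0.101). It was also lost without all 4 arrays numbered 3 (−0.62, 0.262) and without the trend in the moderation (0.0539). Among control embryos CycH read 58.2, 117 and 73.4 at stages 13 to 15, against 196, 165 and 234 at stages 9 to 11. There was no overlap, but the array numbered 2 was the highest of the later and the lowest of the earlier group. The fit put CycH at −1.17 ± 0.30 (log2, SE, adjusted p = 0.00781), and the numbers alone at −1.55, −0.45 and −1.51. Without the 4 arrays numbered 3 the difference was −0.996 and no longer passed (adjusted p = 0.0607).

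MED22, of the Mediator head, read 211, 169 and 130 in irradiated embryos at stages 13 to 15, against 364, 377 and 376 at stages 9 to 11. In control embryos it read 165, 171 and 139 at stages 13 to 15, against 338, 405 and 372 at stages 9 to 11. All 6 later arrays lay below all 6 earlier ones, with medians of 167 and 374, and the 3 irradiated arrays of stages 9 to 11 were nearly equal. Such a separation of all 12 arrays, with the later ones lower, was seen in 12.4% of all tested probe sets and in 1 of the 4 genes. The log2 difference was −1.10 ± 0.19 in irradiated embryos (SE, adjusted p = 4.4e-04) and −1.17 ± 0.19 in control ones (SE, adjusted p = 2.3e-04). Within the numbers it was −0.75, −1.10 and −1.44 in irradiated embryos and −0.98, −1.18 and −1.34 in control ones. Both calls held under all 23 other settings, with a log2 difference of −1.25 to −0.92 in irradiated and −1.37 to −1.01 in control embryos.

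Polr1A, of RNA polymerase I, read 235, 182 and 250 in irradiated embryos at stages 13 to 15, against 343, 344 and 492 at stages 9 to 11, with no overlap. The log2 difference there was −0.78 ± 0.20 (SE, adjusted p = 0.00850), and −0.52, −0.87 and −0.94 within the numbers. It passed under all 23 other settings, with an adjusted p of at most 0.0462. In control embryos Polr1A read 255, 344 and 318 at stages 13 to 15, against 326, 345 and 411 at stages 9 to 11. These groups overlapped, and on the arrays numbered 2 the values were almost the same in both windows. The log2 difference of −0.23 ± 0.20 did not pass (SE, 95% interval −0.65 to 0.18, adjusted p = 0.423). That Polr1A passed in irradiated and not in control embryos does not show that the windows differ more after X-rays. The test of that difference, given with the X-ray results, did not pass.

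**Figure D2:**
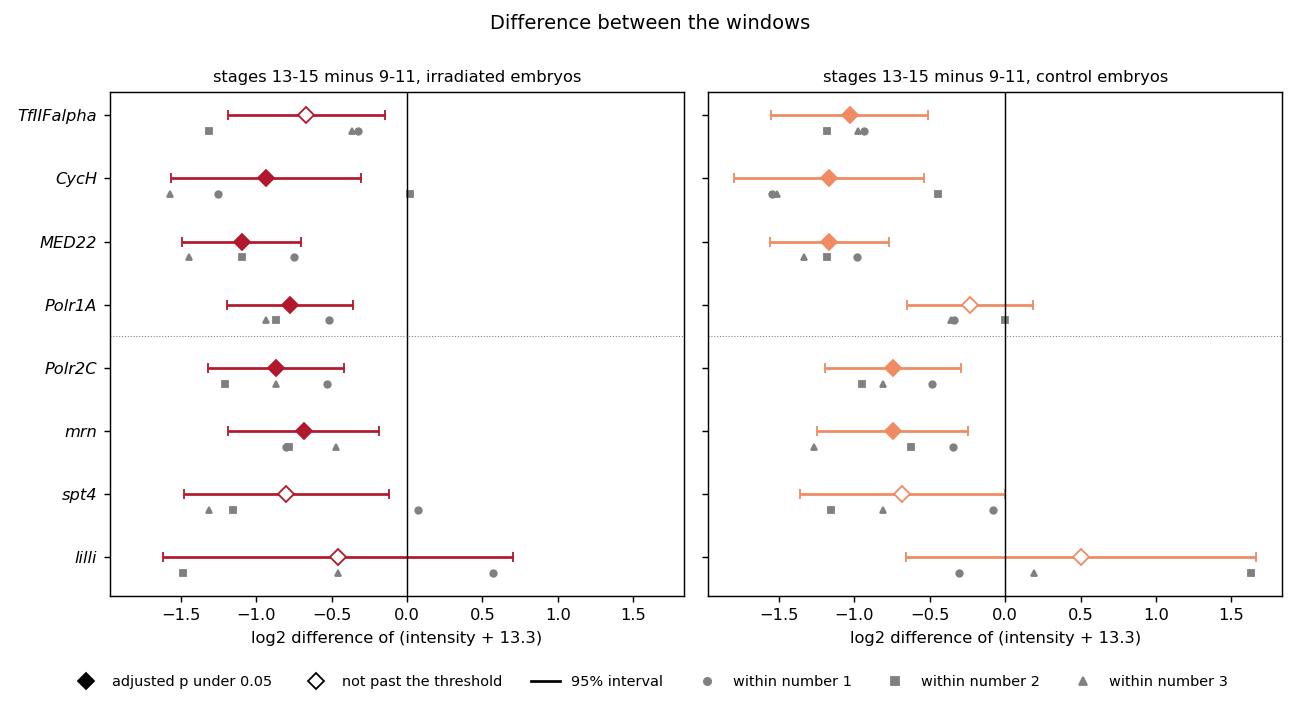
Log2 difference of (intensity + 13.3) between stages 13 to 15 and stages 9 to 11, in irradiated (left) and control embryos (right), for the 4 genes (above the dotted line) and 4 other genes of the transcription machinery. Diamonds give the fitted difference, filled where the adjusted p is under 0.05, bars its 95% interval, and grey symbols the difference within each array number. CycH lies at 0.02 within number 2 in irradiated embryos, and lilli has the widest intervals.

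The counts are to be read against a table in which the windows differ widely. In irradiated embryos 23.6% of the 10139 tested probe sets passed, and 11.6% passed and were lower at stages 13 to 15, against 3 of the 4 genes. In control embryos 26.8% passed and 14.5% were lower, again against 3 of the 4. Being lower in both sets was seen for 9.10% of all tested probe sets and for 2 of the 4 genes. Groups that did not overlap, with the later one lower, were seen in 2 of the 4 genes in irradiated embryos, against 19.7% of all, and in 3 of the 4 in control embryos, against 20.9%. The median log2 difference of the 4 genes was −0.86 in irradiated and −1.10 in control embryos, and that of all tested probe sets was −0.02 and 0.05. Of all tested probe sets, 6.86% had a lower log2 difference than MED22 in irradiated embryos, and 7.43% in control ones. For Polr1A these shares were 13.4% and 35.7%. The genes were picked with these results known, so the counts describe them and are not evidence about the machinery as a whole. Scaling each array to a common median moved the median of all probe sets in control embryos by −0.17 and left 33.8% of the calls higher at stages 13 to 15, against 46.0% without it, and 3 of the 4 genes passed under it as well.

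**Figure D3:**
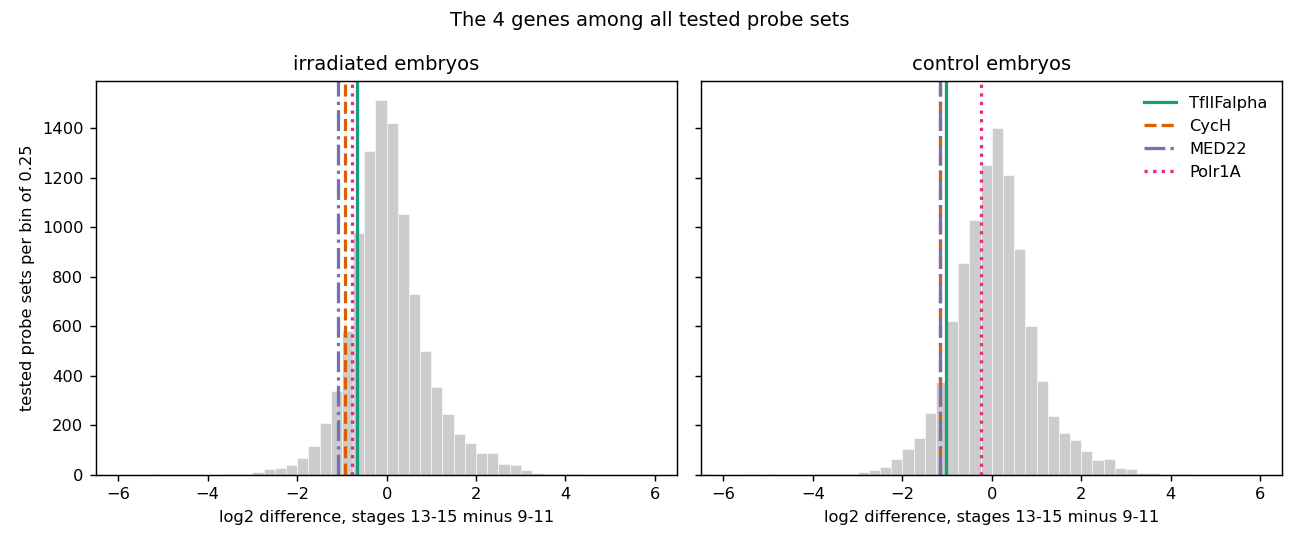
Number of tested probe sets in bins of 0.25 of the log2 difference between stages 13 to 15 and stages 9 to 11, in irradiated (left) and control embryos (right), with a vertical line for each of the 4 genes. Polr1A lies at −0.78 in irradiated and −0.23 in control embryos, where the lines of CycH and MED22 fall together at −1.17.

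The wider machinery could be followed in only a few genes. Lists of the subunits of the 3 nuclear RNA polymerases, the general transcription factors, TFIIH, Mediator and the elongation factors held 113 genes, of which 8 had a named probe set. Besides the 4 genes these were Polr2C, mrn, spt4 and lilli. No named gene came from the RNA polymerase III list. In both irradiated and control embryos 2 of these other 4 genes were lower at stages 13 to 15, 0 were higher, and the remaining 2 did not pass. Of all tested probe sets, 11.6% passed and were lower in irradiated embryos, and 14.5% in control ones. Both that passed, Polr2C and mrn, had all 6 later arrays below all 6 earlier ones, as did 12.4% of all tested probe sets.

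Polr2C, a core subunit of RNA polymerase II, read 129, 97.7 and 90.7 in irradiated embryos at stages 13 to 15, against 193, 243 and 176 at stages 9 to 11, and the fitted difference was −0.87 ± 0.21 (log2, SE, adjusted p = 0.00683). In control embryos it read 126, 86.2 and 98.3, against 182, 179 and 182. The 3 control arrays of stages 9 to 11 were almost equal, and the log2 difference was −0.75 ± 0.21 (SE, adjusted p = 0.0155). That call was lost without the stage 13 to 15 control array numbered 2 (−0.64, adjusted p = 0.0612) and without the arrays numbered 3 (−0.72, 0.0654). The gene mrn, which encodes a core subunit of TFIIH, read 61.6, 60.5 and 76.5 in irradiated embryos at stages 13 to 15, against 117, 114 and 111 at stages 9 to 11. In control embryos it read 78.1, 74.9 and 50.7, against 103, 123 and 141. Its log2 difference was −0.69 ± 0.24 in irradiated embryos (SE, adjusted p = 0.0468) and −0.75 ± 0.24 in control ones (SE, adjusted p = 0.0280). Many settings ended the calls of mrn. In irradiated embryos 12 of 23 did, among them 9 of the 12 fits without 1 array, with −0.78 to −0.63 as the range over all 12. The others were no filter (adjusted p = 0.0604), only the groups compared (0.0620) and all arrays numbered 3 left out (−0.79, 0.0712). In control embryos it was lost without the stage 13 to 15 array numbered 3 (−0.58, adjusted p = 0.103), without the stage 9 to 11 arrays numbered 2 (−0.74, 0.0749) or 3 (−0.65, 0.115), without all arrays numbered 3 (−0.49, 0.25), and with only the groups compared (0.0543).

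The elongation factor gene spt4 had log2 differences of −0.80 ± 0.32 (SE, adjusted p = 0.0864) in irradiated embryos and −0.68 ± 0.32 (SE, adjusted p = 0.135) in control ones, and on the arrays numbered 1 the windows were close (0.07 and −0.08). It passed in irradiated embryos without the stage 9 to 11 X-ray array numbered 1 (−1.11, adjusted p = 0.0225). The gene lilli, whose product belongs to a complex that promotes elongation, read 6.10 to 57.0 over the 12 arrays, with 6 of them above the filter value. Its log2 differences of −0.46 ± 0.55 in irradiated and 0.50 ± 0.55 in control embryos (SE) therefore rest on signal close to background.

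The second question was whether the 4 transcripts changed 15 to 20 minutes after X-rays. None of them passed in either window. At stages 9 to 11, 0.0197% of all tested probe sets passed, 0 of the 4 genes passed, and unadjusted p-values under 0.05 were seen for 0 of the 4, against 3.08% of all. In the later window 0% of all passed in limma, and 1 of the 4 genes, Polr1A, had an unadjusted p under 0.05, as did 4.96% of all tested probe sets. The other 4 machinery genes had 0 calls and 0 unadjusted p-values under 0.05 in both windows. The median log2 difference of the 4 genes was −0.02 at stages 9 to 11 and 0.10 at stages 13 to 15, and that of all probe sets was 0.01 and 0.00 (0.00162). A p that misses the threshold does not show that a transcript is unchanged, so the intervals are given.

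At stages 13 to 15 the 3 irradiated arrays read 182 to 250 for Polr1A, all below the 3 control arrays at 255 to 344. Groups without overlap in either direction were seen in 9.29% of all tested probe sets in this comparison. The array numbered 2 held both the lowest irradiated and the highest control value. The log2 difference was −0.44 ± 0.20 (SE, 95% interval −0.85 to −0.02, unadjusted p = 0.0410, adjusted p = 0.997), with −0.11, −0.87 and −0.33 within the numbers. It was negative under all 23 other settings, from −0.56 to −0.31, and passed under none (adjusted p of 0.505 or more). At stages 9 to 11 Polr1A read 343 to 492 after X-rays and 326 to 411 in controls. That difference was 0.11 ± 0.20 (SE, 95% interval −0.31 to 0.52, adjusted p = 1.00).

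TfIIFalpha varied most among the irradiated embryos of stages 9 to 11, at 442 ± 146, against 510 ± 95.9 in controls (SD, n = 3 each). In log2 units this is −0.24 ± 0.24 (SE, 95% interval −0.76 to 0.29), but −0.58, 0.40 and −0.52 within the numbers, so the arrays numbered 2 went the opposite way to the other two. At stages 13 to 15 it averaged 267 ± 53.7 after X-rays and 244 ± 59.7 in controls (SD, n = 3 each), or 0.13 ± 0.24 in log2 units (SE, 95% interval −0.39 to 0.65).

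CycH averaged 196 ± 57.9 after X-rays and 198 ± 34.7 in controls at stages 9 to 11 (SD, n = 3 each), or −0.05 ± 0.30 in log2 units (SE, 95% interval −0.68 to 0.58). At stages 13 to 15 the means were 95.9 ± 32.8 and 83.0 ± 30.7 (SD, n = 3 each), or 0.19 ± 0.30 in log2 units (SE, 95% interval −0.44 to 0.82). For MED22 the means at stages 9 to 11 were 373 ± 7.17 after X-rays and 372 ± 33.3 in controls (SD, n = 3 each). MED22 differed by 0.01 ± 0.19 in log2 units (SE, 95% interval −0.39 to 0.40), the narrowest interval of the 4 genes in this comparison. The SE rests on the gene's spread over all 4 groups, so it is the same in both windows. At stages 13 to 15 MED22 averaged 170 ± 40.6 and 158 ± 16.7 (SD, n = 3 each), or 0.08 ± 0.19 in log2 units (SE, 95% interval −0.32 to 0.47). Its 3 irradiated arrays of that window spread from 130 to 211, around the controls at 139 to 171.

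**Figure D4:**
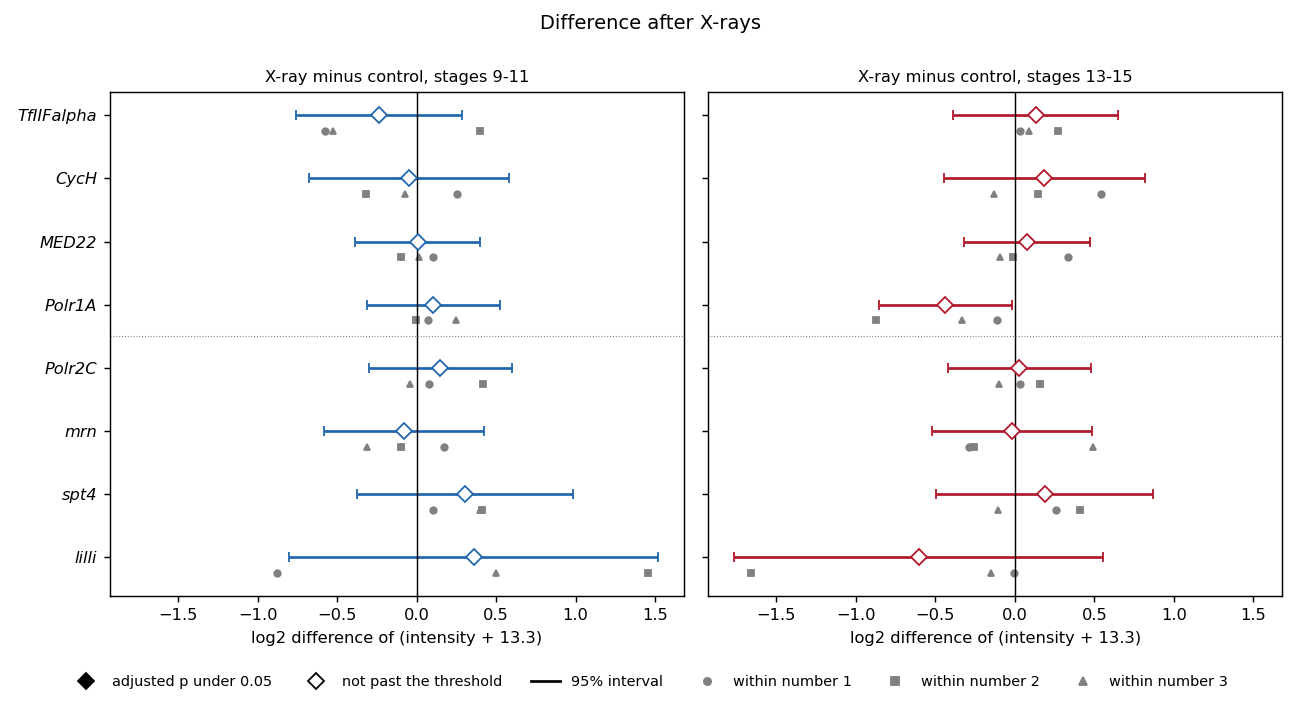
Log2 difference of (intensity + 13.3) between X-ray treated and control embryos at stages 9 to 11 (left) and 13 to 15 (right), for the 4 genes (above the dotted line) and 4 other machinery genes, with symbols as in the plot of the windows. No diamond is filled, and among the 8 genes only the 95% interval of Polr1A at stages 13 to 15, −0.85 to −0.02, leaves out 0.

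Whether the X-ray effect at stages 9 to 11 differed from that at stages 13 to 15 was tested in the same fit, as the first minus the second. It passed for 0 of the 4 genes, against 0.0197% of all tested probe sets, and an unadjusted p under 0.05 was seen for 0 of the 4, against 4.54% of all. For Polr1A it was 0.54 ± 0.28 (SE, 95% interval −0.05 to 1.13, unadjusted p = 0.0682, adjusted p = 0.995), with 0.18, 0.87 and 0.58 within the numbers. By construction, the same value is the stage difference of Polr1A in control embryos minus that in irradiated ones. For TfIIFalpha the difference was −0.37 ± 0.35 (SE), for CycH −0.23 ± 0.42 and for MED22 −0.07 ± 0.26, with adjusted p-values of 0.995 to 0.997.

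The 4 genes did not keep the same order of group means, but the orders differed only within a window, where no X-ray difference passed. TfIIFalpha and CycH were highest in the control embryos of stages 9 to 11, then in the irradiated embryos of that window, then in irradiated and last in control embryos of stages 13 to 15, and each group overlapped the next. MED22 and Polr1A were highest in irradiated embryos of stages 9 to 11, followed by the controls of that window with overlapping values. For MED22 the step from there to the irradiated embryos of stages 13 to 15 was clear of overlap, and those overlapped the controls of their window. For Polr1A the control embryos of stages 13 to 15 overlapped those of stages 9 to 11, and the irradiated embryos of stages 13 to 15 lay lowest. Their highest array, at 250, was just below the lowest control array of that window, at 255.

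Whether pairs of the 4 genes differed unequally between the windows was tested on the log2 ratio of the genes within each array, over 6 arrays of each window with X-ray and control arrays pooled. All 6 pairs were compared with exact two-sided permutation tests, whose smallest possible p is 0.00216, and the tests were chosen after the values were seen. The log2 ratio of MED22 to Polr1A was −0.63 ± 0.43 at stages 13 to 15 and 0.00 ± 0.22 (−0.00479) at stages 9 to 11 (SD, n = 6 each). The difference of −0.63 had an exact p of 0.0173, or 0.104 after Benjamini-Hochberg adjustment over the 6 pairs. It was −0.32 in irradiated and −0.93 in control embryos. For CycH to Polr1A the difference was −0.55 (exact p = 0.0649, adjusted 0.195), and for TfIIFalpha to Polr1A −0.34 (exact p = 0.188, adjusted 0.377). The 3 pairs among TfIIFalpha, CycH and MED22 differed by 0.08 to 0.28, with exact p-values of 0.268 to 0.693. No pair passed after adjustment.

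The genes with the most similar pattern were sought among the other 103 named and tested genes. Each gene's log2 values over the 12 arrays were centred on their own mean, and likeness was the root mean square difference from the member's values, given in log2 units and as a description with no test. MED22 had the closest companions: Sps1, of the selenophosphate synthetase family, at 0.17, dome, the receptor of the JAK/STAT pathway, at 0.21, and the splicing factor gene SF2 at 0.21, against a median of 0.70 over the 103 genes. For TfIIFalpha these were the immunophilin gene Fkbp12 (0.31), Polr2C (0.33) and spt4 (0.33), with a median of 0.63. CycH came nearest to dome (0.32), phu (0.38) and the proteasome subunit gene Prosalpha5 (0.38), with a median of 0.73, and Polr1A to Bin1 (0.24), the kinase gene Snrk (0.26) and phu (0.27), with a median of 0.59. Among the 4 genes themselves CycH and MED22 were the most alike, at 0.33, and TfIIFalpha and CycH the least, at 0.55. All of these values share the same 12 arrays and the stage difference, so a gene that differs by stage to the same degree counts as similar.

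**Figure D5:**
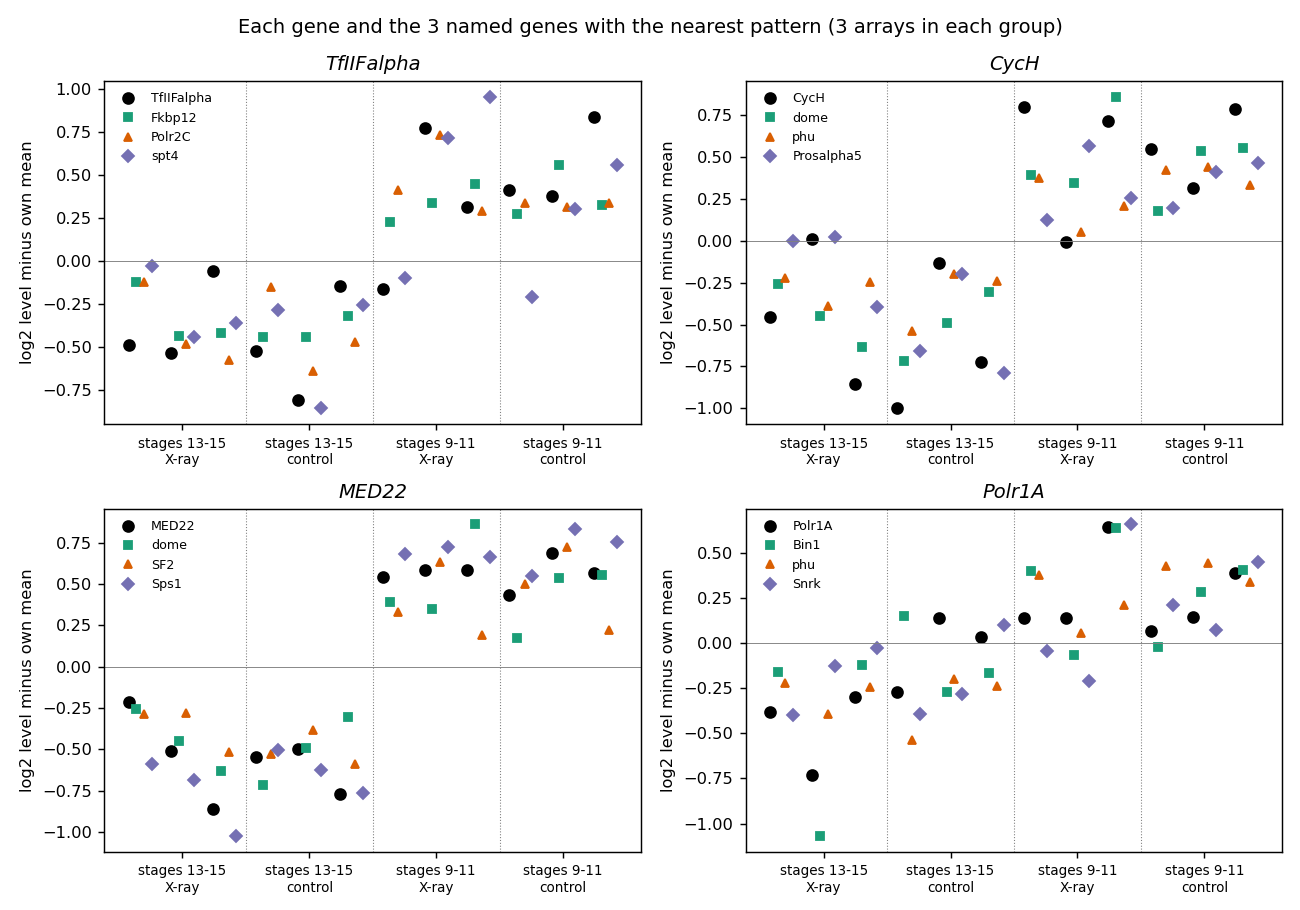
Log2 level minus the gene's own mean over 12 arrays, for each of the 4 genes (black circles) and the 3 named genes with the nearest pattern, with 3 arrays in each group. Sps1 follows MED22 with a root mean square difference of 0.17, and Fkbp12, the nearest gene to TfIIFalpha, lies at 0.31.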

How the data were processed

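The authors deposited linear intensities from 12 arrays with 1 colour, and the labels name neither the software nor the background correction behind them. Trimmed means (2% off each end) are equal across arrays within 0.0023%, so the deposited intensities had been scaled and were not normalized again. RefSeq synonyms (Release 6 plus ISO1 MT), compared without regard to case, named 133 of 13966 gene probe sets. The 44 control probe sets were left out. The pseudocount of 13.3, added before log2, is the table's 25th percentile, and it makes folds smaller, most so where the signal is weak. Above 29.9 on at least 3 arrays were 10139 gene probe sets.

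Testing used limma 3.58.1 (R 4.3.3) with 4 group means, eBayes with trend, two-sided p-values and Benjamini-Hochberg adjustment over all tested probe sets at 0.05. The code was tested on simulated data. With 3 arrays a group an exact test reaches no p under 0.1. The number of arrays limits precision, with a median 95% half-width of 0.72 on the log2 scale. The settings varied were normalization, pseudocount, filter, the moderation's trend, array weights, a replicate block, fewer groups in the fit and leaving out arrays. Named are the 4 genes, all tested genes of the machinery lists, the 3 named genes nearest to each of the 4, and the stage markers en and betaTub60D. A longer list of stage and tissue markers was planned, of which only en and betaTub60D are given. The members and lists were chosen with earlier results of these data known.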

Additional observations from a re-analysis of the deposited data

How the results depend on the processing

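Under 23 other settings, 1 of them (without the 4 arrays numbered 3) chosen after seeing the data, the number of the 4 genes past the threshold was 0 for X-rays in either window and for the difference between X-ray effects (22 settings), 2 to 4 for stages in irradiated embryos and 2 to 3 in control ones. The stage calls of MED22 in both sets, Polr1A in irradiated and TfIIFalpha in control embryos held under all 23. Without the arrays numbered 3 the stage difference was −0.62 (CycH, irradiated, call lost), −0.82 (TfIIFalpha, irradiated, passed) and −0.996 (CycH, control, call lost). In irradiated embryos TfIIFalpha also passed under median scaling (−0.76) and the replicate block (−0.67, adjusted p = 0.0265), and CycH was lost without the trend (−0.94). Fits without 1 array gave −0.90 to −0.43 for TfIIFalpha and −1.19 to −0.73 for CycH there.

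Small X-ray differences changed sign. Median scaling gave −0.0705 for MED22 at stages 9 to 11 and 0.00923 for mrn at stages 13 to 15. Array weights gave 0.00849 for the difference between effects of mrn. Without the arrays numbered 3, mrn had 0.0346 at stages 9 to 11, and the difference between effects was 0.31 for mrn and −0.0766 for spt4. Without 1 array, the ranges at stages 9 to 11 were −0.47 to 6.1e-04 for TfIIFalpha, −0.19 to 0.21 for CycH, −0.0570 to 0.0680 for MED22, −0.0609 to 0.20 for Polr1A, −0.19 to 0.0183 for mrn and −0.0117 to 0.91 for lilli. At stages 13 to 15 they were −0.0273 to 0.30 for TfIIFalpha, −0.0370 to 0.43 for CycH, −0.0808 to 0.24 for MED22, −0.11 to 0.16 for Polr2C, −0.18 to 0.0757 for mrn and −0.00782 to 0.29 for spt4. For the difference between effects they were −0.48 to 0.0231 for CycH, −0.24 to 0.0875 for MED22, −0.0129 to 0.26 for Polr2C, −0.17 to 0.10 for mrn and −0.10 to 0.43 for spt4. The cause was not tested.

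The replicate numbers were not taken to pair the arrays in the main fit, although the arrays were partly alike by number. Deviations of same-numbered arrays correlated at 0.01 to 0.44, over 0.1 in 10 of 18 pairs. Those of arrays with different numbers correlated at −0.28 to 0.14. For 7 of 12 arrays the best match in every other group was the array of their own number. With the replicate block 2881 probe sets passed for stages in irradiated embryos and 3180 in control ones, against 2390 and 2719 without it, and among the 4 genes only the irradiated stage call of TfIIFalpha changed. Over all settings the probe sets passing numbered 0 to 9 for X-rays at stages 9 to 11, 0 to 1 at stages 13 to 15 and 0 to 12 for the difference between effects, against 2, 0 and 2. Without the arrays numbered 3 they were 9, 1 and 12, and 1 was also reached at stages 13 to 15 without the X-ray or the control array numbered 3 of that window. Weak signal limits lilli most.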
